A study of Mus musculus with 8 samples.

Results

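The genes that copy DNA and supply its building blocks were followed in mouse lung after surgery. A list of 40 genes was read by symbol from the deposited expression values, and each gene was represented by the probe set of that symbol alone with the highest mean over the 8 arrays. Of the 40 genes 39 were measured, among 18193 genes on the arrays, and Chaf1a had no probe set of its own. By role, 12 act in origin licensing, 6 in origin firing, 11 at the replication fork, 5 in chromatin and topology and 5 in nucleotide supply. Dtl, a ubiquitin ligase adaptor, and Slbp, which binds histone mRNA, were placed under chromatin and topology for want of a closer role.

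Whole lung RNA came from adult female C57BL/6 mice of 10 to 12 weeks, with equal amounts of tissue from 8 mice pooled on each array. The PNY group had the left lung removed, and the SHAM group had the chest opened and closed without resection, so that lungs taken whole could include the left lung in SHAM only. Each group had 4 arrays, 1 at 6 hours and 1 each at 1, 3 and 7 days. All mice of both groups received anaesthesia with ketamine and xylazine, ventilation, ampicillin and buprenorphine. As the tissue was bulk lung, more cells of a kind and more RNA per cell cannot be told apart. The lung identity of the pools was clear from the surfactant, club cell and endothelial markers, whose mean log2 levels were 11.12 to 14.77 and whose mean differences between PNY and SHAM were -0.11 to 0.10. Markers of alveolar type I cells, ciliated cells, fibroblasts and alveolar macrophages were less even, with mean differences of -0.21 to 0.29. At 3 days the ciliated median was -0.40 and the alveolar type I median 0.24. The part of such shifts in the members' values was not tested.

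As background, a cell prepares to copy its DNA by licensing origins. The origin recognition complex, Cdc6 and Cdt1 load the MCM helicase ring on DNA, and geminin (Gmnn) blocks a second loading. Kinases and the helicase partners Cdc45 and GINS then start the ring, and polymerases, the sliding clamp Pcna and its loader RFC build the new strands. Ribonucleotide reductase, thymidylate synthase and thymidine kinase provide deoxynucleotides, and most of these genes are known to be switched on at the border of G1 and S phase through E2F sites in their promoters. The adult lung is known for slow cell turnover at rest.

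The promoters are shown first, because their letters do not come from the expression values. As most of these genes were already known for E2F sites, a high share of E2F-type words is not independent evidence. RefSeq windows from 250 bases before to 50 bases after the transcription start (build GRCm38.p6) were matched by symbol for 34 of the 39 measured genes. Both strands were searched for 4 E2F-type words (TTTCCCGC, TTTCGCGC, TTTGCCGC and TTTGGCGC), for CCAAT, and for TTTGAA, the word of the cell cycle homology region (CHR) found in many mitotic promoters. Matches of different words may share bases, as the E2F-type word and CCAAT do in the site of Mcm7. An E2F-type word stood in 14 of the 34 promoters (41.2%), against 3.81% of the promoters of 14452 genes on the array. By role these were 7 of 10 origin licensing genes, 0 of 4 origin firing genes, 5 of 10 fork genes, 2 of 5 chromatin and topology genes and 0 of 5 nucleotide supply genes. For 13 of these genes the site nearest the start is printed here on the strand on which the word reads, with the word in capitals and its neighbouring bases in lower case. The site of Pold1 lay too near the window's edge for this.
Orc1 (chr4:108579417-108579444, minus strand): ggagaaaactTTTCGCGCcactaaccga
Cdc6 (chr11:98908003-98908030, minus strand): ccccaggcgaTTTCCCGCtctccaccgg
Cdt1 (chr8:122568037-122568064, plus strand): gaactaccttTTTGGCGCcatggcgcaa
Mcm3 (chr1:20820276-20820303, plus strand): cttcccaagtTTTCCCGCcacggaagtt
Mcm5 (chr8:75109350-75109377, minus strand): ggctggacgtTTTGGCGCgaaagttctt
Mcm6 (chr1:128359735-128359762, minus strand): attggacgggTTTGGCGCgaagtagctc
Mcm7 (chr5:138171850-138171877, minus strand): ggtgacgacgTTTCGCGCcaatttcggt
Pola1 (chrX:93632276-93632303, plus strand): cgggagtgcaTTTGGCGCcctgtgatga
Pole2 (chr12:69228163-69228190, plus strand): atgttcgcgaTTTGGCGCcaccgccgac
Lig1 (chr7:13278842-13278869, minus strand): gccacacagaTTTCGCGCgcactttggc
Rfc3 (chr5:151651191-151651218, plus strand): acagtagagtTTTCCCGCgagcgcgaaa
Uhrf1 (chr17:56304118-56304145, plus strand): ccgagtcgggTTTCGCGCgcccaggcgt
Dtl (chr1:191575535-191575562, minus strand): gtgacgtcagTTTGGCGCggagtttggc

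The site of Cdt1 and the 4 sites of Mcm3, Mcm7, Pole2 and Lig1 begin after the transcription start, Rfc3 begins on it, and the others begin before it, as far as position -185 (Uhrf1), counted along the gene from 1 at the start. The word TTTGGCGC accounted for 6 of the 13 sites, TTTCGCGC for 4 and TTTCCCGC for 3. CCAAT was found in 58.8% of the members' promoters, against 42% of all, and TTTGAA in 17.6% against 15.7%. In a list of 30 mitosis genes, of which 26 had a window, the order was different: 3.85% held an E2F-type word, 80.8% CCAAT and 80.8% TTTGAA. A match is a description of letters and was not tested for binding. A site that differs from these words in any letter was not counted.

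**Figure D1:**
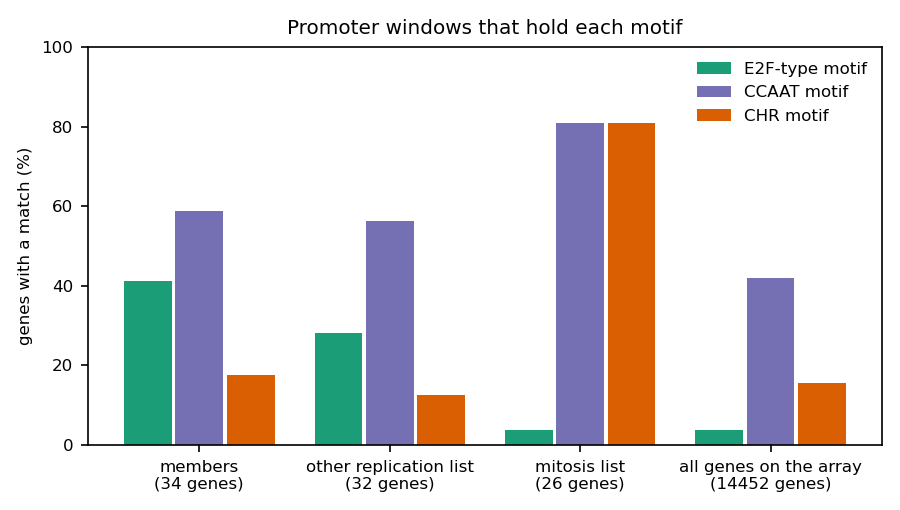
Share of genes (percent, vertical axis) whose 300-base promoter window holds an E2F-type word, CCAAT or the CHR word TTTGAA, for the members, the other replication genes, the mitosis genes and all genes on the array. The E2F-type word was found in 41.2% of members and 28.1% of the other replication genes, against 3.85% of mitosis genes and 3.81% of all genes.

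For the gene with the largest surgery difference in 4 of the roles, the 250 bases before the start are shown, with E2F-type words and CCAAT, on either strand, in capitals. They lie at chr11:98907901-98908150, plus strand (Cdc6), chr16:23127731-23127980, minus strand (Rfc4), chr11:99024190-99024439, minus strand (Top2a) and chr12:24708004-24708253, plus strand (Rrm2). Gins1, first among the origin firing genes, had no window.
Cdc6: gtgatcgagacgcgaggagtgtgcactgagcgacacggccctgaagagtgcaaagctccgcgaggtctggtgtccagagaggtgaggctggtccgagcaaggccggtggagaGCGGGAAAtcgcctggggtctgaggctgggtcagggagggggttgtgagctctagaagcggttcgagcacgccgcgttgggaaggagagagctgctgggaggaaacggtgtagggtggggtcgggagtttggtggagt
Rfc4: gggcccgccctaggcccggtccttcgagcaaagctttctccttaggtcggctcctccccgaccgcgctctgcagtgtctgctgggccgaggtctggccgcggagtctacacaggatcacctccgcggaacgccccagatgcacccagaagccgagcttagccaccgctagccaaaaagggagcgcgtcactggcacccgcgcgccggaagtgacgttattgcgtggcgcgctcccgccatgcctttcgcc
Top2a: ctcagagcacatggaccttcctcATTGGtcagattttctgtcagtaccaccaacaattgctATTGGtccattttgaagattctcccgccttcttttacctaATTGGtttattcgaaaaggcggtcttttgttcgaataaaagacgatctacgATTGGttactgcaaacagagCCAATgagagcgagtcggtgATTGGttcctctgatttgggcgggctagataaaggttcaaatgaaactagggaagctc
Rrm2: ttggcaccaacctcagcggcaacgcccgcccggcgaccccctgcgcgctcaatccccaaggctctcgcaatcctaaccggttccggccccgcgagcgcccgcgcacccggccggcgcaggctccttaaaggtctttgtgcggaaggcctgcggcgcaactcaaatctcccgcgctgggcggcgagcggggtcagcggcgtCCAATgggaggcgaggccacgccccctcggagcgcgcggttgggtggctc

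Cdc6 held 1 E2F-type word, Rfc4 neither word, Top2a 6 copies of CCAAT and 2 of TTTGAA (left in lower case), and Rrm2 1 copy of CCAAT. Of the 4 genes that rose in PNY, Dtl alone held an E2F-type word, and Tk1 held none of the words. As only exact words in these windows were searched, a gene without a word may still have an E2F site.

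Across the 4 time points taken as replicates, 4 of the 39 genes rose in PNY compared to SHAM, none fell and 35 did not pass. Those that rose were the DNA topoisomerase Top2a (mean log2 difference 0.92 ± 0.73, fold 1.89), the ribonucleotide reductase subunit Rrm2 (0.82 ± 0.54, fold 1.76), thymidine kinase Tk1 (0.68 ± 0.51, fold 1.60) and Dtl, the adaptor through which a ubiquitin ligase removes Cdt1 in S phase (0.67 ± 0.63, fold 1.59), each ± SD over the 4 time points. The test was the rank product over the 16 pairs of a PNY and a SHAM array, with P under 0.001 by permutation and a fold change of at least 1.5. Over all 45037 probe sets 0.315% passed in this direction and 0.0555% in the other, and counted by gene 92 of 18193 passed upward. Without the minimum fold change, 7 members passed, the additional 3 being Mcm5, Rfc4 and Uhrf1. The share of all probe sets passing at that setting is not given here. The study's own list from these arrays held the 4 genes and also Rfc4 and Uhrf1, each at a fold of 1.5. Here the folds of Rfc4 and Uhrf1 were 1.47 and 1.46, just under the minimum. The median of the mean differences was 0.26 over the members and 0.00 over all probe sets, and 38 of 39 lay above 0 (50.1% of all probe sets).

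The second test gave no call. By limma, with Benjamini-Hochberg adjustment over all probe sets, 0 of 39 genes passed an adjusted p of 0.05 (lowest 1), with 0% of all probe sets passing, and 9 members were higher in PNY at an unadjusted p under 0.05, against 1.05% of all. With the time point as a block, which pairs the PNY and SHAM arrays of one time, again 0 passed (0% of all; lowest adjusted p 0.6329, for Rfc4), and 18 members were higher at an unadjusted p under 0.05, against 3.13% of all. The rank product with that pairing called the same 4 genes.

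Several calls depended on which arrays were used. The call of Top2a was lost when the PNY array of 7 days (mean difference 0.46) or both arrays of that time (0.59) were left out, and that of Rrm2 when both 3 day arrays were (0.65). Tk1 and Dtl passed in 7 of 12 such settings each, failing without the PNY array of 3 days (0.54 and 0.57), the PNY array of 7 days (0.42 and 0.40), the SHAM array of 6 hours (0.54 and 0.56), or both arrays of 3 days (0.54 and 0.60) or 7 days (0.52 and 0.40). Without the PNY array of 6 hours 9 members passed, with Cdc6, Mcm2, Mcm5, Rfc4 and Uhrf1 in addition to the 4. The shares of all probe sets passing with arrays left out are not given here.

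By time point the members separated from SHAM at 3 days and 7 days. Their median log2 differences were 0.08 (6 hours), 0.20 (1 day), 0.45 (3 days) and 0.47 (7 days), whereas the medians of all probe sets were 0.00 to 0.01. At 6 hours 23 of 39 members were higher in PNY (49.8% of all probe sets), at 1 day 32 (50.9%), at 3 days 38 (50.7%) and at 7 days 38 (51%). The exception at 3 days was Orc1 (-0.04) and that at 7 days was Rfc3 (-0.10). In the dimmer probe sets of these genes the same differences were 0.02 (Orc1) and 0.52 (Rfc3). A difference of at least 1.5-fold upward was reached by 0 members at 6 hours (0.877% of all), 0 at 1 day (2.19%), 11 at 3 days (1.18%) and 14 at 7 days (1.57%), and by none downward at any time, against 1.37%, 1.59%, 0.746% and 2.08% of all. Each time point had 1 array per group, so these differences have no replicate check. Over the 4 times 16 members were higher in PNY at every one (7.41% of all), and 37 were higher at both 3 days and 7 days (26.3%). The difference at 7 days exceeded that at 3 days in 23 members, against 50.1% of all probe sets, so no common order of these 2 times was seen.

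**Figure D2:**
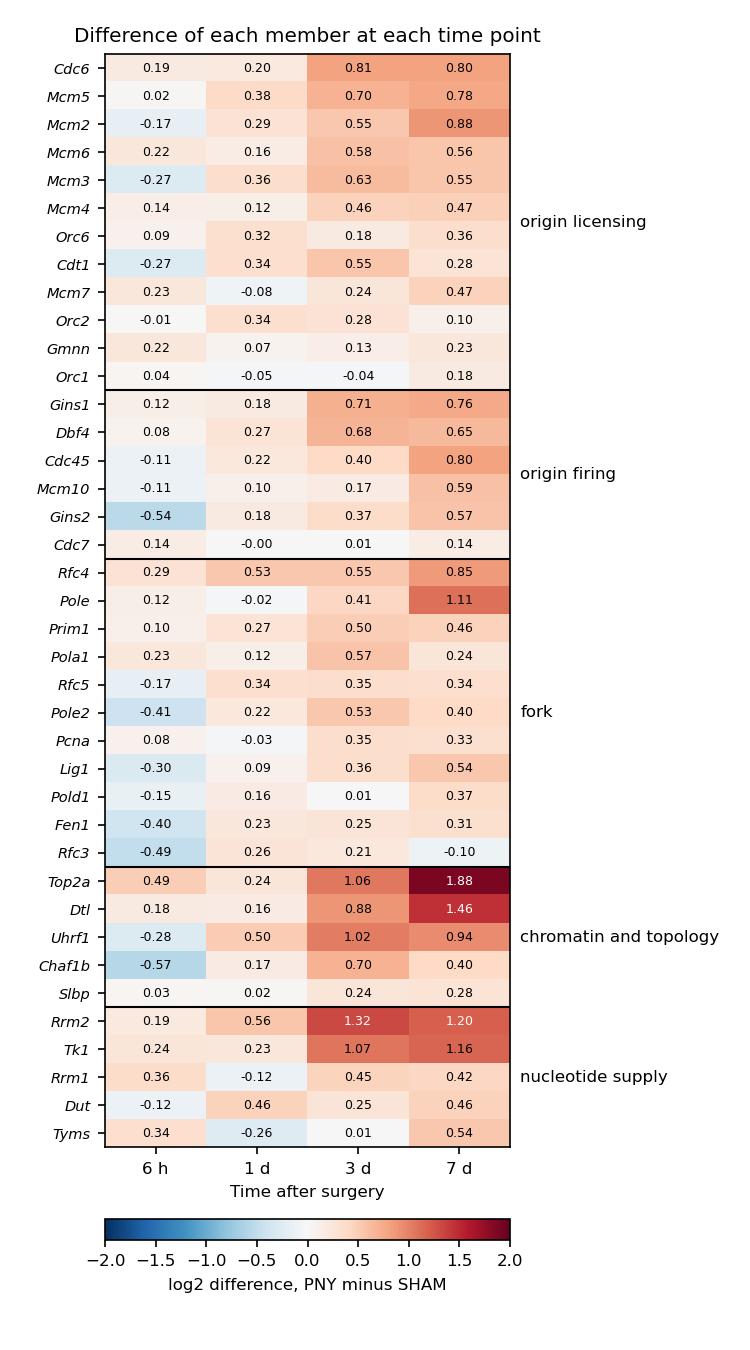
Log2 difference (PNY minus SHAM, colour and printed value) of each of the 39 measured members at each time after surgery, grouped by role. Values at 3 days and 7 days are above 0 in 38 of 39 members each, up to 1.88 for Top2a at 7 days.

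One array stood apart at 1 day. In the PNY array of 1 day all 10 thymocyte markers were at least 1.5-fold above SHAM, with a median difference of 2.16, and their summed linear level was 2986 there, against 401 to 558 in the other PNY arrays and 435 to 598 in the SHAM arrays. The recombinase gene Rag1, which defines developing lymphocytes, had a log2 level of 9.60 in that array and of 3.62 in the SHAM array of 1 day. At 3 days and 7 days the thymocyte medians were 0.10 and -0.36. Without the PNY array of 1 day, or without both arrays of 1 day, the same 4 members passed the rank product. Each of these had its largest difference at 3 days or 7 days, so these settings do not bear on the values at 1 day. The part of thymocyte RNA in the members' values at 1 day was not tested. The summed levels of erythroid markers were 1577 to 2206 in PNY and 1695 to 2199 in SHAM, those of precursor B cells 793 to 1678 in PNY and 1007 to 1977 in SHAM, and those of myeloid precursors 148 to 199 in PNY and 164 to 212 in SHAM. Within the time points some single markers differed. The erythroid heme synthesis gene Alas2 fell by the same rank product, with log2 differences of -0.92, -0.19, -1.07 and -1.39 in the order of the time points (fold 0.54), while Tfrc, at a mean level of 10.36, had a mean difference of 0.21. At 7 days the precursor B sum was 1250 in PNY and 1931 in SHAM, Vpreb3 was below SHAM at all 4 times (-0.39, -0.18, -0.42 and -0.24), and the myeloid gene Prtn3 had a difference of -1.23 at 7 days. Their part in the members' values was not tested.

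With 1 probe set per gene, the role medians lay closest together at 1 day. At 6 hours the median differences were 0.06 for origin licensing, -0.02 for origin firing, -0.15 for the fork, 0.03 for chromatin and topology and 0.24 for nucleotide supply. At 1 day all 5 lay between 0.17 and 0.24. At 3 days they were 0.50, 0.39, 0.36, 0.88 and 0.45 in the same order, and at 7 days 0.47, 0.62, 0.37, 0.94 and 0.54. With 5 to 12 genes a role these medians carry no test, and their order changed with the probe sets used. With all probe sets of a gene averaged, the 3 day medians in the same order were 0.39, 0.25, 0.35, 0.38 and 0.42, and the 7 day medians 0.42, 0.36, 0.33, 0.64 and 0.27, so that chromatin and topology was highest at 7 days in both settings and at 3 days in the first setting only.

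**Figure D3:**
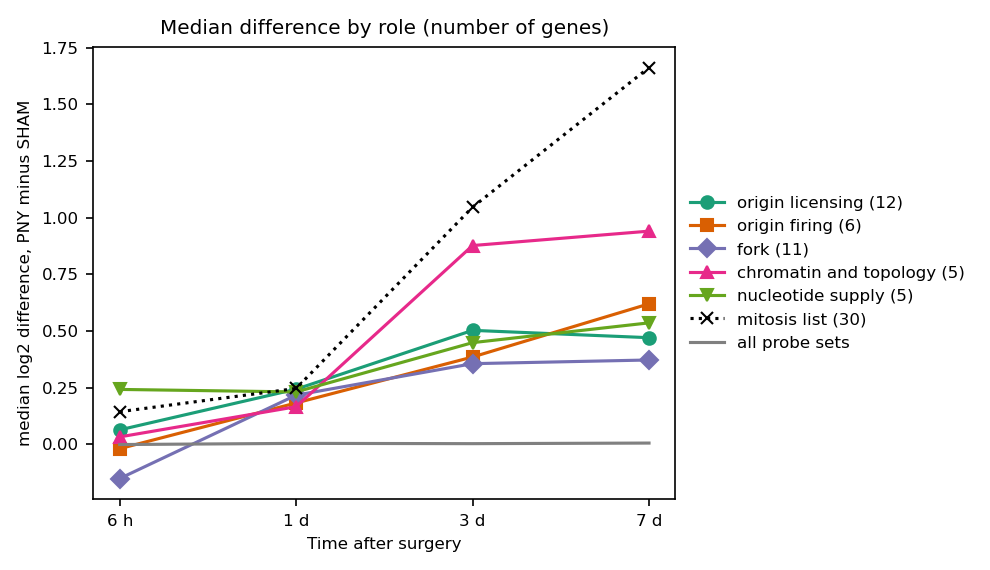
Median log2 difference (PNY minus SHAM) of the genes of each role, of the mitosis list and of all probe sets at 4 time points. The 5 role medians lie between -0.15 and 0.24 up to 1 day and between 0.36 and 0.94 at 3 days and 7 days, below the mitosis list at both later times and above the median of all probe sets.

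Of the 12 origin licensing genes none passed, and their mean differences ran between 0.03 and 0.50. Cdc6, which loads the helicase, had log2 levels of 5.40, 5.74, 5.99 and 6.32 in PNY lungs, against 5.21, 5.54, 5.18 and 5.52 in SHAM lungs from the first time point to the last, the order used for every gene here. The differences at 3 days and 7 days were 1.75-fold and 1.74-fold, and the groups overlapped through the PNY array of 6 hours. Mcm5, a subunit of the helicase ring, had 7.16, 8.37, 8.58 and 8.79 in PNY lungs, against 7.15, 8.00, 7.88 and 8.01 in SHAM lungs at the same times. The 6 hours arrays were the lowest of both groups and nearly equal, and the later 3 PNY arrays lay above all SHAM arrays. The mean difference of Mcm5 was 0.47 ± 0.35 (SD over 4 time points) and that of Cdc6 0.50 ± 0.35. The other ring subunits Mcm2, Mcm3, Mcm4, Mcm6 and Mcm7 had mean differences of 0.39, 0.32, 0.30, 0.38 and 0.22, and those of Mcm2 and Mcm3 were below 0 at 6 hours (-0.17 and -0.27). Orc1, the largest subunit of the origin recognition complex, had 6.83, 6.38, 6.55 and 6.59 in PNY lungs, against 6.79, 6.42, 6.59 and 6.41 in SHAM lungs, and its groups overlapped throughout. Orc2, Orc6, Cdt1 and Gmnn had mean differences of 0.18, 0.24, 0.22 and 0.16.

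Of the 6 origin firing genes none passed, with mean differences of 0.07 to 0.44. Gins1, a subunit of the GINS complex that travels with the helicase, had log2 levels of 5.91, 6.06, 6.29 and 6.35 in PNY lungs, against 5.79, 5.88, 5.57 and 5.58 in SHAM lungs. It was the single member whose PNY arrays all lay above all SHAM arrays, against 0.713% of all probe sets, with a mean difference of 0.44 ± 0.34 (SD over 4 time points). The exact permutation test over the 70 splits of the arrays gave its two-sided p as 0.0286, before any adjustment. This is the smallest that 4 against 4 arrays allow. It follows from the lack of overlap and adds nothing to it. Dbf4, the activating partner of the kinase Cdc7, had 7.40, 7.25, 7.65 and 8.05 in PNY lungs, against 7.33, 6.98, 6.97 and 7.40 in SHAM lungs. The PNY arrays of 3 days and 7 days were above all SHAM arrays, and that of 1 day was not. Cdc7 itself had 5.46, 5.54, 5.39 and 5.56 in PNY lungs, against 5.32, 5.54, 5.38 and 5.42 in SHAM lungs, with a mean difference of 0.07 and a level below the median of all probe sets (5.92). Cdc45, Mcm10 and Gins2, which join the helicase as it starts, had log2 differences of -0.11, -0.11 and -0.54 at 6 hours and of 0.80, 0.59 and 0.57 at 7 days. In the dimmer probe set of Gins2 the same differences were -0.03 and 0.70, and in that of Cdc45 -0.23 and 0.36. The dimmer probe sets of Mcm10 had -0.15 and -0.26 at 6 hours, and 0.08 and 0.16 at 7 days.

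Of the 11 fork genes none passed, and the mean differences lay between -0.03 and 0.55. Rfc4, a subunit of the clamp loader, had log2 levels of 6.83, 7.41, 7.56 and 7.93 in PNY lungs, against 6.54, 6.88, 7.01 and 7.08 in SHAM lungs. PNY was higher at all 4 times, by 0.29, 0.53, 0.55 and 0.85, and the groups overlapped through the PNY array of 6 hours. Pole, the catalytic subunit of the leading strand polymerase, had 5.30, 5.06, 5.40 and 6.01 in PNY lungs, against 5.18, 5.09, 4.99 and 4.91 in SHAM lungs. The PNY array of 7 days was 2.16-fold above its SHAM array, the PNY array of 1 day lay among the SHAM values, and the level of Pole was below the median of all probe sets. Rfc3, another subunit of the clamp loader, had 6.59, 7.50, 7.39 and 7.41 in PNY lungs, against 7.08, 7.24, 7.18 and 7.51 in SHAM lungs. It was the one member with a mean difference below 0 (-0.03 ± 0.34, SD over 4 time points), and its dimmer probe set had a mean difference of 0.23. The clamp Pcna was 1.28-fold and 1.25-fold above SHAM at 3 days and 7 days. The primase Prim1 and polymerase subunit Pola1 were above SHAM at all 4 times, with mean differences of 0.33 and 0.29, whereas Pole2, Fen1 and Lig1, of polymerase epsilon and of lagging strand processing, were below SHAM at 6 hours (-0.41, -0.40 and -0.30) and above it at 7 days (0.40, 0.31 and 0.54).

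Of the 5 chromatin and topology genes Top2a and Dtl rose and 3 did not pass. Top2a, which untangles replicated chromosomes and is also used in mitosis, had log2 levels of 6.89, 7.14, 7.94 and 9.13 in PNY lungs, against 6.40, 6.90, 6.89 and 7.25 in SHAM lungs. The PNY array of 7 days was far above the other 7 arrays, 3.68-fold over its SHAM array, with 2.08-fold at 3 days, and the rank product permutation P was 2.3e-05. Its other probe sets, at mean levels of 4.47 and 3.91, had mean differences of 0.16 and 0.17 and were not called. Dtl had 5.14, 5.64, 6.25 and 6.75 in PNY lungs, against 4.96, 5.48, 5.37 and 5.29 in SHAM lungs. Its PNY arrays of 3 days and 7 days lay 1.84-fold and 2.75-fold above SHAM, and the PNY array of 6 hours lay among the SHAM values. Of the 5 other Dtl probe sets, all at mean levels under 5, none was called, the nearest having a mean difference of 0.54 (fold 1.46). Uhrf1, which recruits the maintenance DNA methyltransferase to new strands, was 2.03-fold and 1.92-fold above SHAM at 3 days and 7 days but below it at 6 hours (-0.28), with a mean of 0.55 ± 0.60 (SD over 4 time points) and a fold of 1.46. Chaf1b, of the histone chaperone behind the fork, had differences of -0.57 at 6 hours and 0.70 at 3 days. Slbp, which binds histone mRNA, had 9.63, 9.79, 10.02 and 10.07 in PNY lungs, against 9.59, 9.76, 9.78 and 9.79 in SHAM lungs. The PNY arrays of 3 days and 7 days were above all SHAM arrays, by differences of 0.24 and 0.28 from those of their own times.

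Of the 5 nucleotide supply genes Rrm2 and Tk1 rose and 3 did not pass. Rrm2, the S phase subunit of ribonucleotide reductase, had log2 levels of 7.73, 8.81, 8.97 and 9.38 in PNY lungs, against 7.54, 8.25, 7.65 and 8.18 in SHAM lungs. The later 3 PNY arrays lay above every SHAM array, the difference was 2.50-fold at 3 days and 2.30-fold at 7 days, and the rank product permutation P was 2.0e-05. Both other Rrm2 probe sets were called as well, with mean differences of 0.83 and 0.86. Tk1, the salvage kinase of thymidine, had 6.45, 6.97, 7.71 and 8.07 in PNY lungs, against 6.21, 6.73, 6.64 and 6.91 in SHAM lungs. The PNY arrays of 3 days and 7 days were 2.10-fold and 2.23-fold above their SHAM arrays, that of 1 day was just above the highest SHAM array, and that of 6 hours lay among the SHAM values. Rrm1, the large reductase subunit, was 1.36-fold and 1.34-fold above SHAM at the later times and Dut, which clears dUTP, 1.19-fold and 1.37-fold. Tyms, thymidylate synthase, had 3.97, 3.88, 3.93 and 4.25 in PNY lungs, against 3.64, 4.14, 3.93 and 3.71 in SHAM lungs. Its mean level of 3.93 was far below the median of all probe sets, and its groups overlapped.

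**Figure D4:**
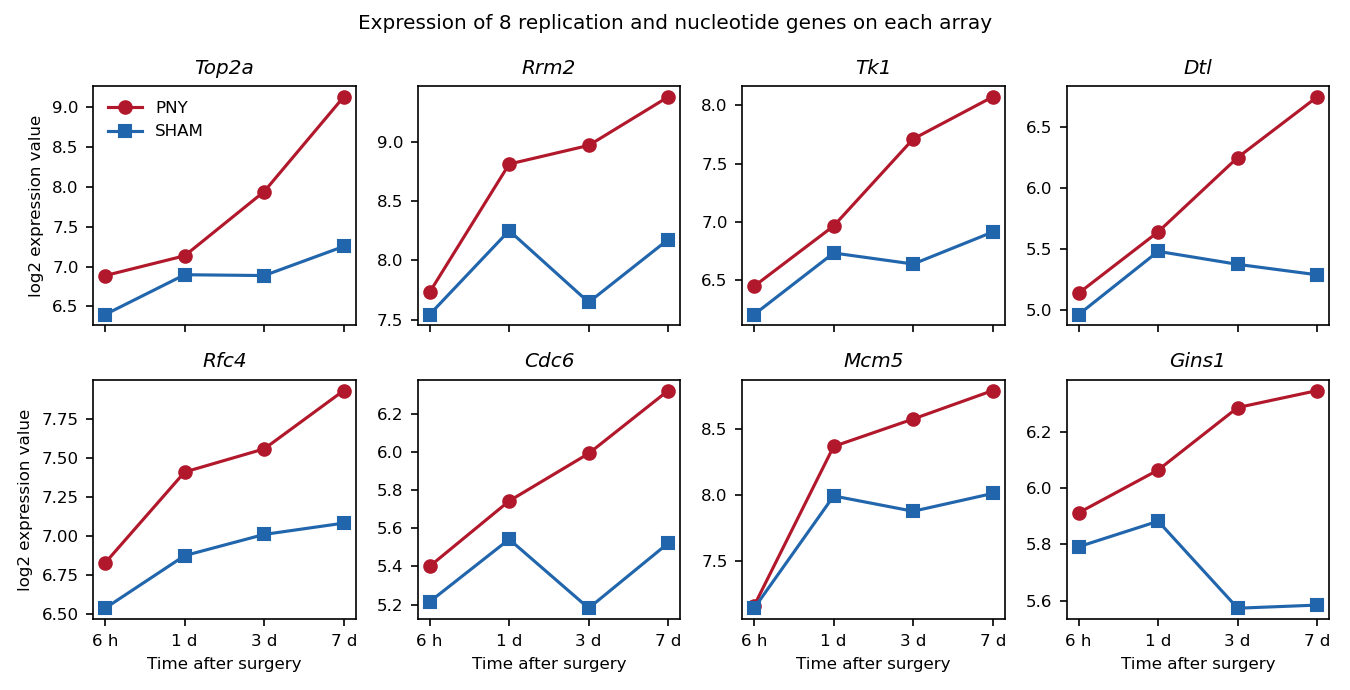
Log2 expression of 8 members on each of the 8 arrays (vertical axis, a separate scale for each gene) against time after surgery, PNY as red circles and SHAM as blue squares. The PNY line runs above the SHAM line at all 4 times for each of these genes, and the gap is widest at 3 days or 7 days. All 8 are among the 16 of 39 members that were higher in PNY at every time. The first pattern therefore follows from which genes are drawn. Uhrf1, with a mean difference of 0.55 but -0.28 at 6 hours, is not drawn.

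The course within each group was set out by comparing 3 days and 7 days (late) with 6 hours and 1 day (early). In PNY 37 of 39 members were higher late (24085 of all 45037 probe sets), with a median log2 difference of 0.50. The exceptions were Orc1 and Cdc7 (-0.03 and -0.02). In SHAM 28 of 39 were higher (21871 of all 45037 probe sets), with a median of 0.03. Counted by gene, 11079 of 18193 were higher late in PNY and 10546 in SHAM. By limma over all probe sets none of the members passed after adjustment in PNY (lowest adjusted p 0.311; 0% of all passed) or in SHAM (lowest 0.5932; 0% of all). At an unadjusted p under 0.05 24 members were higher late in PNY (3.6% of all) and none in SHAM (4.42%). The change of the surgery difference itself, late minus early, was above 0 in 39 of 39 members (22159 of all 45037 probe sets), with a median of 0.38. Yet none passed adjustment (lowest 0.9999, 0% of all), and 6 had an unadjusted p under 0.05 (1.88% of all). These 6 were Cdc45, Gins1, Pole, Chaf1b, Dtl and Tk1. For Top2a the late minus early difference was 1.53 ± 0.36 in PNY and 0.42 ± 0.36 in SHAM (SE), for Tk1 1.18 ± 0.24 and 0.31 ± 0.24, for Dtl 1.11 ± 0.25 and 0.11 ± 0.25, and for Rrm2 0.90 ± 0.38 and 0.01 ± 0.38.

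**Figure D5:**
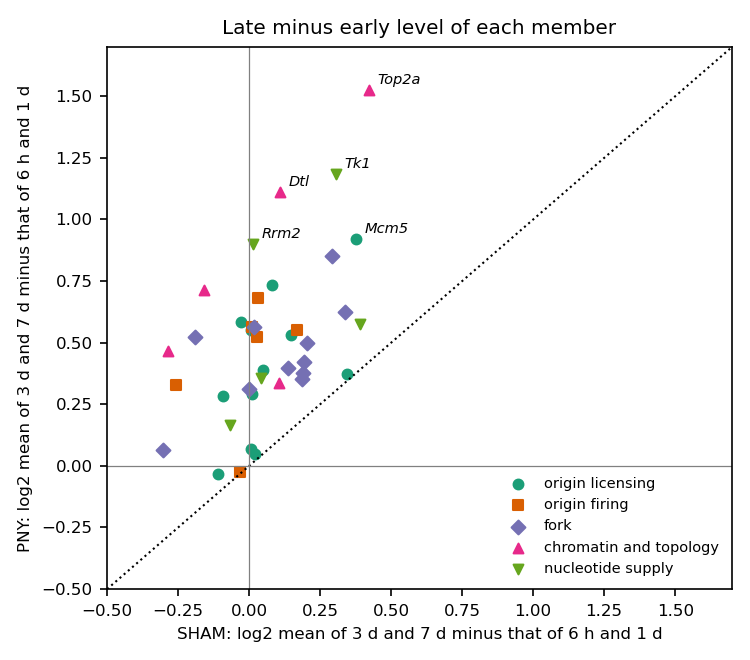
Late minus early log2 level (mean of 3 days and 7 days minus mean of 6 hours and 1 day) of the 39 members in PNY (vertical axis) and in SHAM (horizontal axis), with the diagonal of equal change. All 39 points lie above the diagonal, with Top2a at 1.53 in PNY and 0.42 in SHAM.

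The 6 hours arrays were low in both groups. In 20 of 39 members the 6 hours array was the lowest of its 4 in PNY and also in SHAM (15.8% of all probe sets). The level in PNY was higher at each later time point in 21 members (7.26% of all), and in SHAM in 5 (3130 of 45037 probe sets). The median member level was 7.08, 7.52, 7.71 and 7.94 in PNY and 7.15, 7.24, 7.32 and 7.45 in SHAM, in the order of the time points.

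Differences of the other genes of the pathway were nearer to 0. The members, though, include Top2a, Rrm2, Tk1, Dtl, Rfc4 and Uhrf1, which the study had listed from these arrays. The contrast with the members is therefore not independent evidence. Of 39 further replication genes 1 rose, none fell and 38 did not pass, with median differences of 0.04, 0.11, 0.13 and 0.18 over the time points. The gene that rose was Dscc1, a subunit of the clamp loader for sister chromatid cohesion, with log2 levels of 3.72, 5.14, 5.57 and 5.56 in PNY lungs, against 3.55, 4.23, 3.65 and 4.54 in SHAM lungs. Its mean difference was 1.00 ± 0.72 (SD over 4 time points, fold 2.00), at a mean level of 4.50 that was below the median of all probe sets. The next 3 by size, the checkpoint mediator Clspn, the clamp unloader Atad5 and the histone chaperone Asf1b, had mean differences of 0.42, 0.38 and 0.37 and did not pass. Of 20 further genes of nucleotide synthesis 18 were measured and none passed, with medians of 0.08, 0.12, 0.09 and 0.04; among them the alternative reductase subunit Rrm2b had a mean difference of -0.04 and the mitochondrial thymidine kinase Tk2 one of -0.09, whereas S phase Rrm2 and Tk1 rose. In the mitosis list, several of whose genes the study had picked on these arrays so that it is not independent evidence, 23 of 30 rose, with medians of 0.14, 0.25, 1.05 and 1.66, above those of every replication role at 3 days and 7 days. The difference between these lists was not tested.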

How the data were processed

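The data are log2 expression values of 8 Affymetrix mouse genome arrays. The authors deposited log2 values made with RMA (background correction, quantile normalization and summarization; version not given in the sources used here). Of 45101 probe sets 64 controls were left out and 45037 tested with no filter. By the array annotation 34945 carry 1 gene symbol, 932 several and 9160 none, and genes were named only from the first. Array medians lie between 5.90 and 5.95. Probe-level values were not used here.

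The members, roles and lists were chosen with earlier results of these data known. The rank product was coded in Python 3.11.15 (numpy 2.4.6), with 1000 permutations within arrays (100 for alternatives), after the study's methods. On simulated data it recovered the changed probe sets, and with unequal spread between probe sets it called more unchanged ones than its P implies. limma 3.58.1 (R 4.3.3) was fitted over all probe sets. Values in every array are given for members that passed and, in each role, for the 2 with the largest and the 1 with the smallest mean difference; of the further genes, for those that passed, with the mean differences of the 4 largest. Rrm2b, Tk2, Rag1, the other single markers and further members were named after their values were seen.

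PNY and SHAM arrays of 1 time point deviate together (correlations of deviations from the group means 0.605, 0.357, 0.303 and 0.295 in the order of the time points), against -0.508 to 0.340 between arrays of different times. The time point, a shared label, was taken as pairing them, although the pairing is weak at 3 and 7 days. The arrays of a group differ in time, so P-values measure spread over time points as well as between pools. The number of arrays limits the precision. Alternatives were leaving out arrays, another centring and normalization, a filter at the median level, averaging a gene's probe sets, no minimum fold change, the percentage of false positives, and the time block. Promoters are RefSeq's (GRCm38.p6).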

Additional observations from a re-analysis of the deposited data

Results flagged for a closer look

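In 8 of the 78 groups of 4 arrays tested, each being 1 member in PNY or in SHAM, the array of 6 hours lay so far below the other 3 that its gap to the nearest, as a share of the group's range, passed Dixon's critical value. For 4 replicate arrays, chance marks some array of a group, high or low, in about 1 in 20 groups. The arrays of a group here are different time points, and the members share them. That rate is therefore no test of the count of 8. Over all probe sets some array was marked in 6.29% of groups, and the 6 hours array as the low one in 1.57%. In PNY these were Cdt1 (7.83 at 6 hours, the others 8.41 to 8.48), Pola1 (6.50, the others 7.19 to 7.28), Rfc3 (6.59, the others 7.39 to 7.50) and Uhrf1 (6.00, the others 7.31 to 7.56). In SHAM they were Gmnn (7.91 at 6 hours, the others 8.48 to 8.54), Mcm5 (7.15, the others 7.88 to 8.01), Slbp (9.59, the others 9.76 to 9.79) and Dut (7.20, the others 7.80 to 7.91). The values are log2 levels, and the 8 genes span origin licensing, the fork, chromatin and nucleotide supply.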

How the results depend on the processing

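The count of 4 members that passed the rank product lay between 1 and 9 with 1 array left out. It was 8 without both arrays of 6 hours, 1 without both arrays of 3 days (Top2a) and 1 without both arrays of 7 days (Rrm2). It was 2 with a gene's probe sets averaged (Rrm2 and Tk1), 2 at a percentage of false positives under 0.05, and 7 with no minimum fold change. With the time point as a replicate block it stayed at 4, the same genes, and the block moved the limma count at an unadjusted p under 0.05 to 18, against 9 without it, with 0 adjusted calls in both. For the rank product under these alternatives, the shares of all probe sets passing are not given here. The count of 1 further pathway gene was 0 with the filter at the median level, 0 with probe sets averaged, 1 to 2 with 1 array left out and 2 without both arrays of 6 hours. The count of 11 members at least 1.5-fold higher at 3 days was 6 with probe sets averaged. Of the values compared, 111 main ones and 307 others kept their direction and side of the threshold, 15 main counts moved by more than 1.5 times (those given above), 1 median moved (chromatin and topology at 3 days, 0.38 with probe sets averaged), 7 values of single genes came past the threshold, 15 were lost from it, and no value changed direction. Depth of an array is not measured. Cdc6, Cdc7, Mcm10, Pole, Dtl and Tyms lie below the median level, where small differences are least certain, and Dtl was not tested with the filter.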
